A study of Homo sapiens with 24 samples.

Results

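This account covers 5 genes for proteins that bind estrogen or are related to its receptors, ESR1, ESR2, ESRRA, ESRRG and GPER1, among the 18239 genes named on the arrays. They were found by gene symbol in the platform annotation and are measured by 31 of 49293 probe sets, which are short series of probes read together as 1 value. ESR1 has 5 probe sets, ESR2 8, ESRRA 2, ESRRG 7 and GPER1 9, and the brightest of each gene, by its mean over all arrays, was taken as its main one.

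ESR1 and ESR2 encode estrogen receptors alpha and beta, nuclear receptors that bind estradiol and then act on transcription at estrogen response elements in DNA. ESRRA and ESRRG encode estrogen-related receptors alpha and gamma, which share that family's fold but bind no estrogen, and which work with PGC-1 coactivators on genes of mitochondrial energy metabolism. GPER1 encodes a G-protein-coupled receptor of membranes that responds to estradiol. In the colon epithelium, estrogen receptor beta is known as the main nuclear estrogen receptor.

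The cells are HCT116, an established human colon cancer line. The ESR2 cells had been infected repeatedly with a lentivirus carrying full-length ESR2 cDNA with a HaloTag at its amino end, in a vector that also encodes GFP and puromycin resistance, and were used as a puromycin-selected pool rather than a clone; the labels give more than 80% GFP-positive cells. The labels call the other cells wild type and do not say that they received an empty vector, so virus, selection and receptor cannot be told apart. The 8 groups of 3 arrays are ESR2 cells in hypoxia with and without 10 nM 17β-estradiol, ESR2 cells in normoxia with and without it, and parental cells in the same 4 states. Nitrogen and CO2 were run through the incubator for hypoxia, and cells given estradiol were kept in stripped serum without phenol red. How long each treatment lasted was not stated. Nothing in the labels makes the 3 replicates separate cultures, so p-values rest on a spread that may be only technical, and 3 arrays a group limit the precision.

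Values are RMA log2 signals, so that a difference of 1 is a doubling, and a level on one probe set says nothing of the level on another. Differences were called at a limma p below 0.05 after Benjamini-Hochberg adjustment over all genes. Groups of 3 arrays did not overlap for 12.1% to 58.8% of all genes, by comparison, so a lack of overlap given below is a description only. Of 10 colon epithelium markers, EPCAM (11.0 to 11.4), KRT19 (10.9 to 11.9), KRT18, KRT8, CDH1 and CDX2 had lowest values of 5.75 or more, while VIL1 (2.93 to 3.27), KRT20 (2.88 to 4.46), CDX1 (3.53 to 4.12) and LGR5 (3.51 to 4.27) were low; such levels on different probe sets are given as a description only. Array 2 of parental normoxia without estradiol stood apart, with a lowest correlation to its group of 0.988, against at least 0.9956 between the other arrays of any group. The 3′ minus 5′ difference of control probe sets, an index that grows as labelled RNA gets shorter, was 4.34 on that array, 3.42 to 4.01 in hypoxic ESR2 cells with estradiol, and 2.00 to 3.10 on the other 20 arrays. For scale, 23 control probe sets labelled nonspecific averaged between 2.11 and 6.25, and 30 of the 31 probe sets of the receptors averaged below the highest of them. That count rests on a single control, since the next highest averaged 4.35. On their brightest probe sets ESRRA and GPER1 averaged above 4.35, and ESR1, ESR2 and ESRRG below it. The share of all probe sets below these controls was not counted, so the comparison does not set the receptors apart from other genes.

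**Figure D1:**
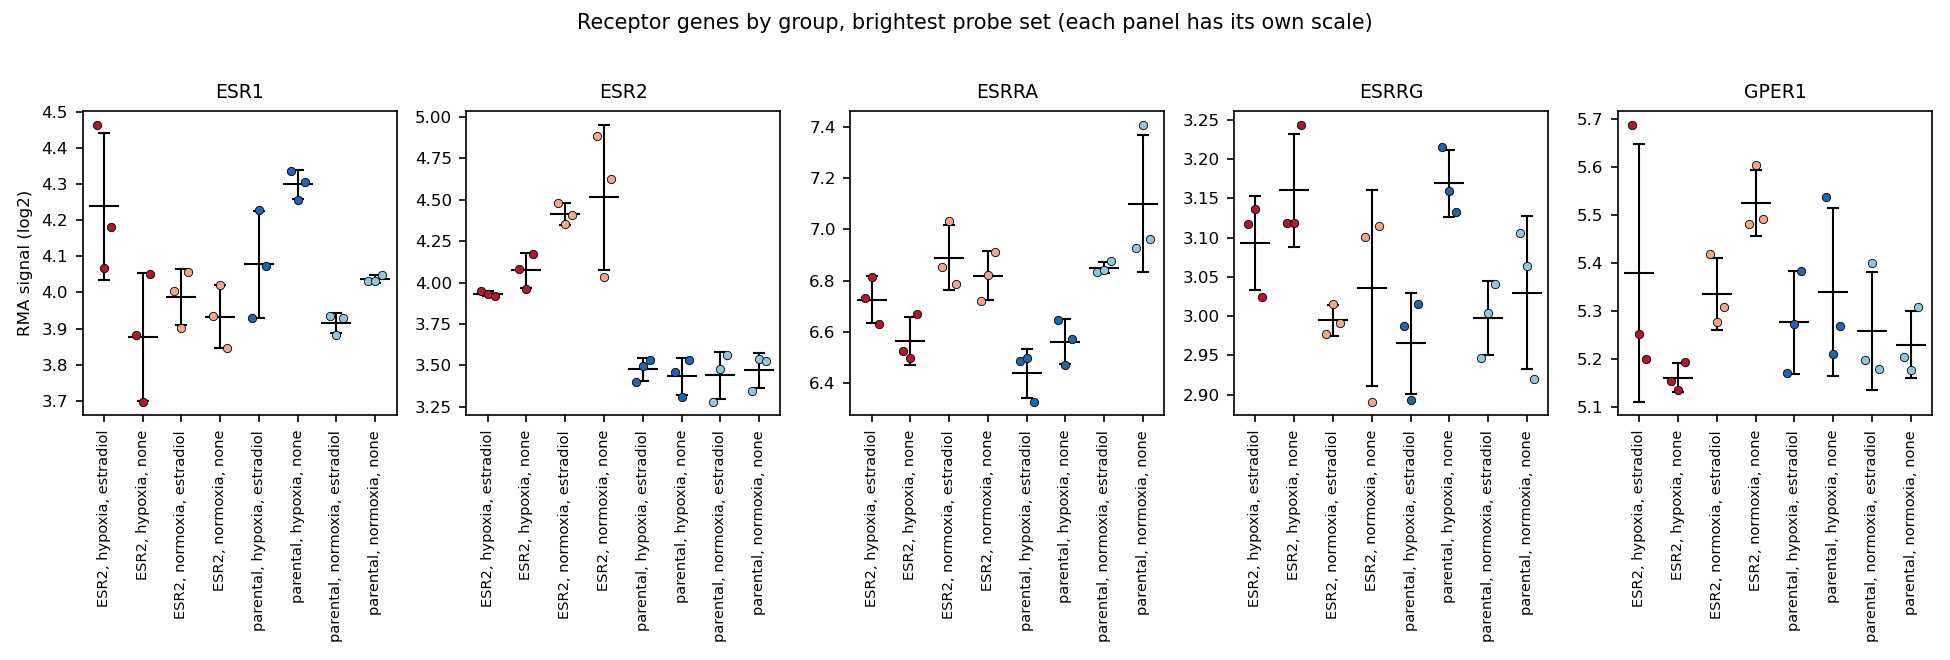
RMA log2 signal (vertical axis, a separate scale in each panel) of the brightest probe set of each receptor gene in 8 groups (horizontal axis); points are arrays, horizontal lines group means and bars the SD (n = 3). ESR2 lies between 3.92 and 4.89 in ESR2 cells and between 3.28 and 3.56 in parental cells, while ESRRA has its lowest mean in hypoxic parental cells with estradiol, 6.44.

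The receptors did not move alike. ESR2, on its brightest probe set, was higher in the transduced cells in every state, and in those cells it was lower in hypoxia. ESRRA was lower in hypoxia in parental cells, by 0.54 without estradiol and 0.41 with it. On their brightest probe sets ESR1 and GPER1 changed by at most 0.42 in any comparison of groups, and ESRRG passed the test in none. Other probe sets changed by up to 0.51 for ESR1 and 0.75 for GPER1. Of 60 differences between pairs of groups (5 genes in 12 comparisons), 15 were called, in comparisons that called 0% to 57% of all genes. Of 15 interactions 4 were called, where 24.5% to 38.6% of all genes were.

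ESR2, the gene of estrogen receptor beta and of the construct, is described first because it checks the labels. In normoxia without estradiol it read 4.89, 4.03 and 4.63 in ESR2 cells, against 3.35, 3.54 and 3.52 in parental cells. In hypoxia without estradiol it read 4.08, 3.96 and 4.17 in ESR2 cells, against 3.46, 3.31 and 3.53 in parental cells. No array of ESR2 cells overlapped a parental array in either state. The rise was 1.05 in normoxia (SE 0.13; limma, adjusted p = 6.44e-06), or 2.06-fold, and 0.64 in hypoxia (SE 0.13; adjusted p = 0.000411), or 1.56-fold.

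With estradiol the picture was alike. ESR2 read 4.48, 4.35 and 4.41 in normoxic ESR2 cells, against 3.28, 3.48 and 3.56 in normoxic parental cells. It read 3.95, 3.93 and 3.92 in hypoxic ESR2 cells, against 3.40, 3.50 and 3.53 in hypoxic parental cells. The differences were 0.97 in normoxia (limma, adjusted p = 1.49e-05) and 0.46 in hypoxia (adjusted p = 0.00608), again with no overlap. The last of these is the least firm: with the control index as a covariate it was 0.25 (adjusted p = 0.24), and as a mean over the 8 probe sets 0.13 (adjusted p = 0.18). Only 1 of the 8 probe sets, the brightest, was called higher in hypoxia with estradiol, where 22.7% of all probe sets were.

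Within the ESR2 cells the level was lower in hypoxia; in RNA from a whole pool, fewer transduced cells and less ESR2 RNA per cell cannot be told apart. Without estradiol the difference was -0.44 (SE 0.13; limma, adjusted p = 0.0124), and the groups overlapped because array 2 of the normoxic group read 4.03. With estradiol it was -0.48 (adjusted p = 0.00401), with no overlap. The first call was lost without array 1 of normoxic ESR2 cells (-0.26, adjusted p = 0.131), without its array 3 (-0.39, adjusted p = 0.0579), without array 2 of hypoxic ESR2 cells (-0.39, adjusted p = 0.0596) and with the control index as a covariate (-0.34, adjusted p = 0.0599). The second held under each alternative that was run.

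In parental cells no hypoxia difference of ESR2 passed the test. It was -0.04 without estradiol (95% interval -0.31 to 0.24) and 0.04 with it (95% interval -0.24 to 0.31). The hypoxia difference was more negative in ESR2 than in parental cells by 0.52 with estradiol (limma interaction -0.52, SE 0.19, adjusted p = 0.0318). Without estradiol the interaction was -0.41 (adjusted p = 0.107), and it moved with single arrays: it was -0.65 (adjusted p = 0.000554) without array 2 of normoxic ESR2 cells and -0.22 (adjusted p = 0.356) without its array 1. The 4 parental groups averaged 3.43 to 3.48, below the array medians of 4.07 to 4.13, and could not be ordered, since all neighbouring groups among them overlapped. The 4 ESR2 groups ranked normoxia without estradiol (4.51 ± 0.44), normoxia with it (4.41 ± 0.07), hypoxia without it (4.07 ± 0.11) and hypoxia with it (3.93 ± 0.02; SD, n = 3 each); the arrays of the first overlapped those of the second and the third, and no other pair among these 4 overlapped.

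**Figure D2:**
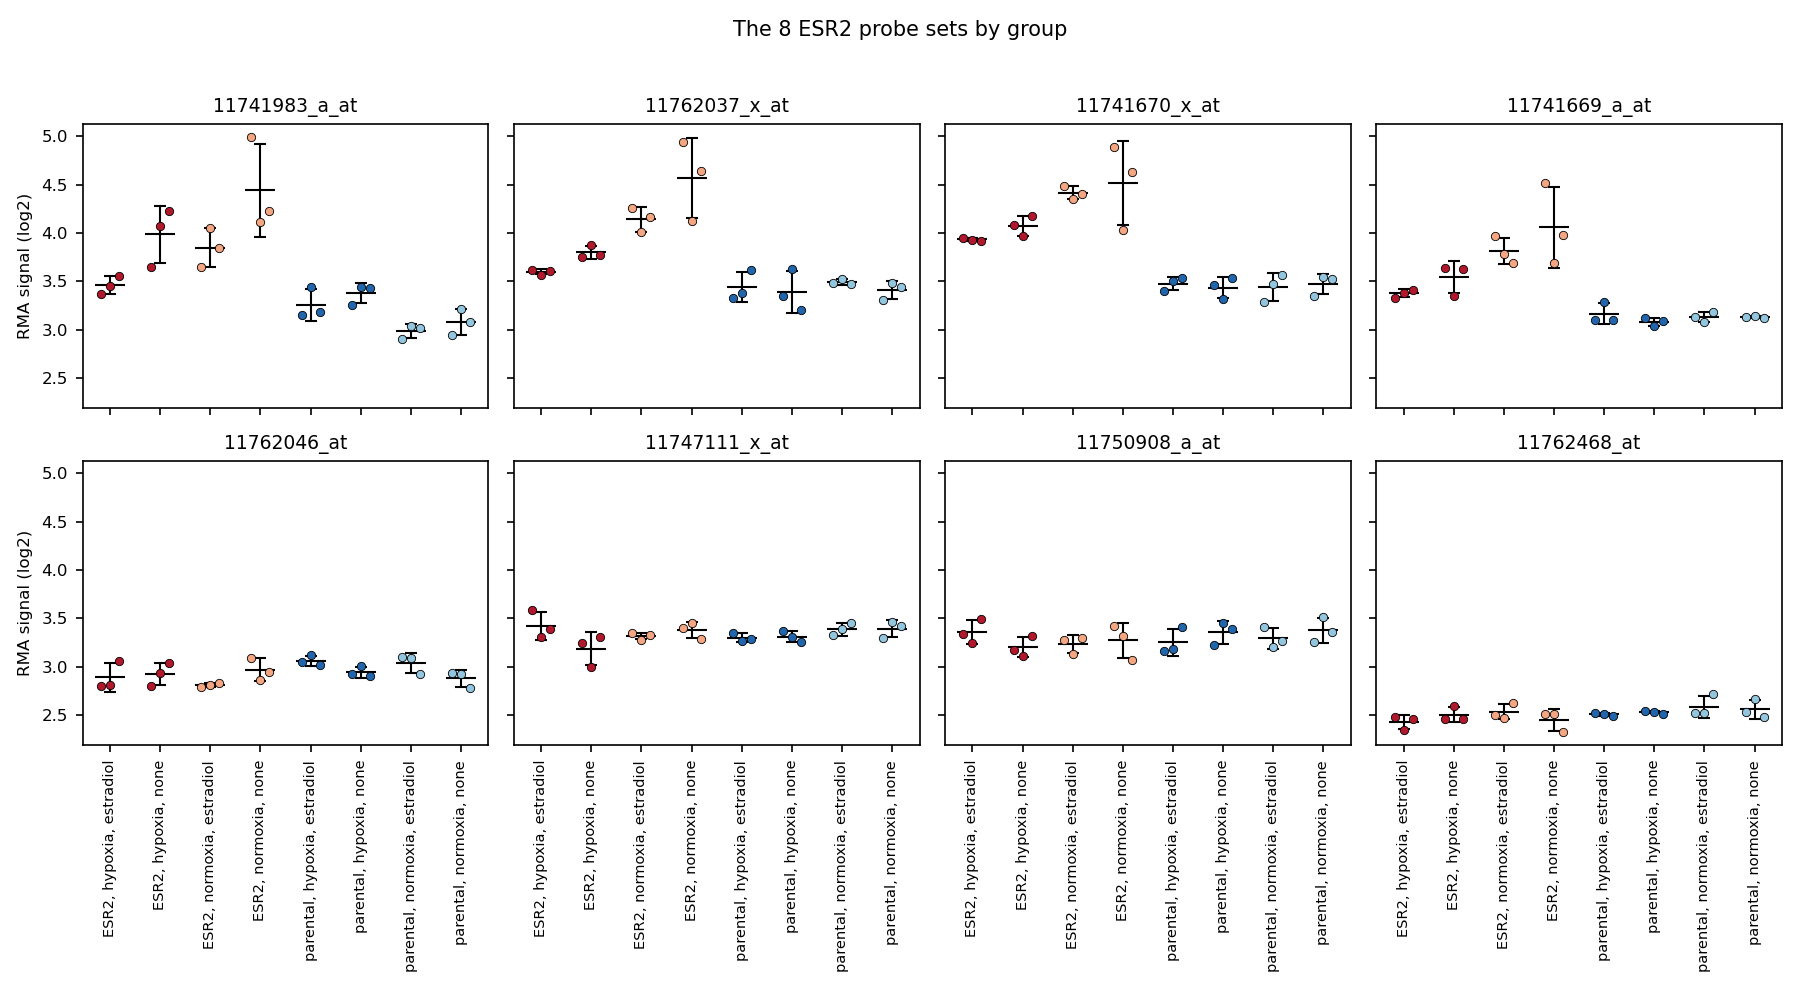
RMA log2 signal (vertical axis) of the 8 ESR2 probe sets, a panel each, in 8 groups (horizontal axis); points are arrays, lines group means and bars the SD (n = 3). The 4 upper panels are the probe sets that were higher in ESR2 cells, led by 11741983_a_at, while the 4 lower panels stay between 2.32 and 3.58 on every array.

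The 8 probe sets of ESR2 fell into 2 sets of 4. In normoxia without estradiol, 11741983_a_at was higher in ESR2 cells by 1.36, 11762037_x_at by 1.16, 11741670_x_at, the brightest, by 1.05 and 11741669_a_at by 0.93 (limma over all probe sets, adjusted p at most 3.33e-05), where 7.49% of all probe sets were called higher. The suffix of 11762037_x_at and 11741670_x_at marks probes that may also match other transcripts. The other 4 differed by -0.11 to 0.09 and were not called. Over the 12 arrays of ESR2 cells the first 4 correlated with each other at 0.71 to 0.95 and with the other 4 at -0.16 to 0.63, a description over arrays that share the same groups. Probe positions are not in the files used here, so which parts of the ESR2 transcript each probe set reads was not analysed.

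The lower level in hypoxia was shared by these 4 probe sets. The 4 were picked as higher in normoxic ESR2 cells without estradiol, the reference group of the first comparison below, which favours a fall. They also read 1 gene on the same arrays, so their agreement is no independent support. Without estradiol all 4 were called lower in hypoxic than in normoxic ESR2 cells, by 0.44 to 0.77, where 13.7% of all probe sets were called lower. Probe set 11762037_x_at fell most, to 3.75, 3.88 and 3.77 in hypoxia, against 4.94, 4.12 and 4.64 in normoxia, with no overlap (-0.77, SE 0.14; limma, adjusted p = 0.000165). Array 2 of normoxic ESR2 cells was the lowest of its group on all 4. Its control index was 2.28, the lowest of its group too, and the part of either in the other was not tested. With estradiol 3 of the 4 were called lower in hypoxia, where 21% of all probe sets were.

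Probe set 11741983_a_at was alone among the 4 in a further call: in hypoxic ESR2 cells it read 3.37, 3.45 and 3.55 with estradiol, against 3.65, 4.08 and 4.23 without it. That is a fall of 0.53 (SE 0.17; limma, adjusted p = 0.0133), in a comparison where 21.1% of all probe sets were called lower. On the brightest probe set the same difference was -0.14 (95% interval -0.41 to 0.13, adjusted p = 0.371). Also lower with estradiol, with no call, were 11741669_a_at (means of 3.37 with it and 3.54 without it) and 11762037_x_at (3.60 and 3.80). Of the other 4, which were not called between the cells in normoxia without estradiol, 11747111_x_at was called higher by 0.24 (adjusted p = 0.0185). So the first 4 shared a direction with estradiol, but the fall was called on only 1 of them.

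**Figure D3:**
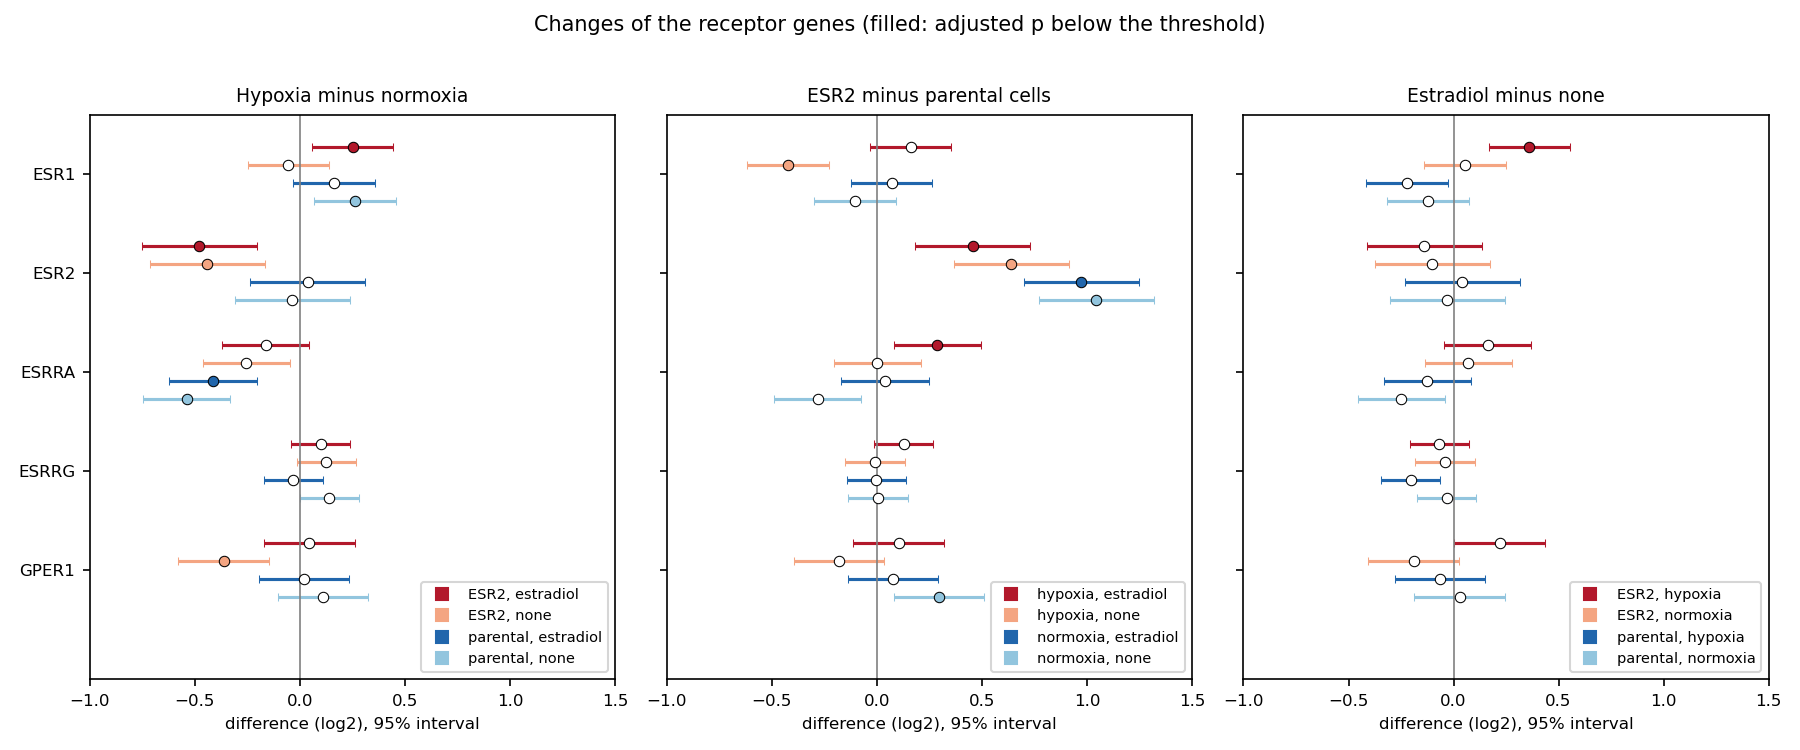
Differences of the brightest probe sets (horizontal axis, log2) with 95% intervals from limma for hypoxia, for ESR2 cells and for estradiol, a panel each, with the 5 genes down the page; colours mark the state in which each difference was taken, and filled points passed the threshold. ESR2 was called higher in ESR2 cells in all 4 states, by 0.46 to 1.05, and the called falls in hypoxia are those of ESR2 (-0.44 and -0.48) and GPER1 (-0.36) in ESR2 cells and of ESRRA (-0.41 and -0.54) in parental cells.

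ESRRA, the gene of estrogen-related receptor alpha, was lower in hypoxic parental cells. Without estradiol it read 6.65, 6.47 and 6.57 in hypoxia, against 6.93, 7.41 and 6.96 in normoxia. With estradiol it read 6.49, 6.50 and 6.33 in hypoxia, against 6.83, 6.84 and 6.88 in normoxia. Every hypoxic array lay below every normoxic array in both pairs. The falls were -0.54 (SE 0.10; limma, adjusted p = 9.97e-05), or 1.45-fold, and -0.41 (SE 0.10; adjusted p = 0.00176), or 1.33-fold.

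The value of 7.41 belongs to the array that stood apart. Without it the fall without estradiol was -0.39 (limma, adjusted p = 0.000647), and with the control index as a covariate -0.37 (adjusted p = 0.00347). Both falls kept their calls under each alternative run. They rest on 1 probe set, 11757487_x_at, whose suffix marks probes that may also match other transcripts. The second, 11718526_a_at, averaged 3.31, within the range of the nonspecific controls, and differed by -0.04 and -0.15 in the same comparisons with no call.

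In ESR2 cells the same differences were smaller and missed the threshold. Without estradiol ESRRA read 6.52, 6.50 and 6.67 in hypoxic ESR2 cells, against 6.72, 6.82 and 6.91 in normoxic ESR2 cells, a difference of -0.26 (95% interval -0.46 to -0.05; limma, adjusted p = 0.0537). With estradiol it read 6.73, 6.81 and 6.63 in hypoxia, against 6.85, 7.03 and 6.78 in normoxia, a difference of -0.16 (95% interval -0.37 to 0.04; adjusted p = 0.175). The groups without estradiol did not overlap, and those with it did. The difference between the cells was 0.28 without estradiol (interaction; limma, adjusted p = 0.138) and 0.25 with it (adjusted p = 0.174), so a weaker fall in ESR2 cells was not shown.

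The order of the 8 groups on ESRRA put the 4 normoxic groups above the 4 hypoxic ones, with the lowest mean, 6.44 ± 0.10, in hypoxic parental cells with estradiol and the highest, 7.10 ± 0.27, in normoxic parental cells without it (SD, n = 3 each). All 7 neighbouring pairs in that order overlapped, so only groups farther apart can be ranked. ESRRA was higher in ESR2 than in parental cells in hypoxia with estradiol, by 0.29 (SE 0.10; limma, adjusted p = 0.0203). With the control index as a covariate that difference was 0.04 (adjusted p = 0.789), and it lost its call without array 2 of the ESR2 group (0.24, adjusted p = 0.0812) or array 3 of the parental group (0.23, adjusted p = 0.0998). In normoxia without estradiol ESRRA was 0.28 lower in ESR2 cells with no call (adjusted p = 0.0525), and 0.13 lower without the array that stood apart.

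Promoters are shown for the pair of members whose groups spanned more than 0.5, each as the 250 bases before an annotated start in RefSeq's GRCh38.p14. ESRRA has 1 start in that table and ESR2 5; in the transduced cells the construct does not carry the ESR2 promoter shown. Capitals mark ACGTG, the core of the hypoxia response element to which hypoxia-inducible factors bind, on either strand; in CACGTG the matches on both strands overlap.
ESRRA, chr11:64305274-64305523, plus strand: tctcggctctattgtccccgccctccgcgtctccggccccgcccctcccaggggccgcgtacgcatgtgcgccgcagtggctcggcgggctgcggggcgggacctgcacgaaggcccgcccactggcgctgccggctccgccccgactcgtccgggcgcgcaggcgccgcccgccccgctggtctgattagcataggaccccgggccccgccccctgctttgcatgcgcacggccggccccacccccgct
ESR2, chr14:64294372-64294621, minus strand: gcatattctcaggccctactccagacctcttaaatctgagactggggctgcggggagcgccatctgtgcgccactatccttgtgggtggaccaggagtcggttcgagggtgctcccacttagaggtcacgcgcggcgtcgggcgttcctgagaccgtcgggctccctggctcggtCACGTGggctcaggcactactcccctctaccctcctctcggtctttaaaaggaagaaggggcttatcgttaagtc

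The windows searched run 250 bases before to 50 after each start, on both strands. ACGTG was in 0 of 1 windows of ESRRA, 2 of 5 of ESR2, 1 of 6 of ESR1, 1 of 8 of ESRRG and 0 of 2 of GPER1, and in 21.4% of all 35116 windows. The 2 ESR2 windows overlap and hold the same CACGTG, which lies 75 bases before the start site in the window shown; that window was chosen from the 5 because it holds the match. AAGGTCA, the extended site of estrogen-related receptors, was in 1 window of ESR2 and 1 of ESRRG, against 3.92% of all windows. The full palindromic estrogen response element, searched by its consensus, was in none of the 22 windows of the members and in 0.057% of all windows. These are matches of letters and say nothing of binding.

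ESR1, the gene of estrogen receptor alpha, moved little and not the same way on its probe sets. Its 5 probe sets averaged 3.18 to 4.05, within the range of the nonspecific controls, and the brightest lay below the array median on 18 of 24 arrays. In hypoxia without estradiol ESR1 read 3.88, 3.70 and 4.05 in ESR2 cells, against 4.34, 4.26 and 4.30 in parental cells, with no overlap. The difference was -0.42 (SE 0.09; limma, adjusted p = 0.000805), or 1.34-fold. It kept its call under each alternative run, with values between -0.51 and -0.25. A second probe set, 11721786_a_at, was lower by 0.51 in the same comparison (adjusted p = 0.000597), so 2 of 5 were called, where 17.4% of all probe sets were called lower.

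Over the 8 groups ESR1 lay between 3.88 ± 0.18 in hypoxic ESR2 cells without estradiol and 4.30 ± 0.04 in hypoxic parental cells without it (SD, n = 3 each), and all 7 neighbouring pairs in that order overlapped.

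In parental cells without estradiol ESR1 was higher in hypoxia. Normoxic parental arrays read 4.03, 4.03 and 4.05, so the hypoxic values given above were higher by 0.26 (SE 0.09; limma, adjusted p = 0.0293). The other 4 probe sets of ESR1 were not called there, and the mean over the 5 was 0.05 higher (adjusted p = 0.595). The call was also lost without any of 5 of the 6 arrays compared, with values of 0.24 to 0.27, and with the control index as a covariate (0.21, adjusted p = 0.159). In ESR2 cells without estradiol the hypoxia difference was -0.06 (95% interval -0.25 to 0.14), and the interaction was -0.32 (adjusted p = 0.0718).

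Estradiol was followed by a difference of ESR1 in hypoxic ESR2 cells, the comparison in which 57% of all genes were called and the control index moved most. ESR1 read 4.46, 4.07 and 4.18 with estradiol, against 3.88, 3.70 and 4.05 without it. The groups did not overlap, which held for 58.1% of all genes in this comparison. The difference was 0.36 (SE 0.09, limma adjusted p = 0.00236), or 1.28-fold, beside a median of 0.12 over all genes. With the index as a covariate it was 0.47 (adjusted p = 0.0127). Of the 5 probe sets 3 were called higher, with differences of 0.34 to 0.48, where 28.4% of all probe sets were called higher. With estradiol ESR1 was also higher in hypoxic than in normoxic ESR2 cells, by 0.25 (adjusted p = 0.028), a call that was lost without array 1 of the hypoxic group (0.14, adjusted p = 0.225).

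The index averaged 3.74 ± 0.30 in hypoxic ESR2 cells with estradiol, against 2.10 ± 0.10 without it (SD, n = 3 each), with no overlap, so estradiol and whatever sets the index cannot be told apart there. Of 7 leukocyte markers measured 4 were also called higher, led by CD68, by 1.68, where 35.4% of all genes were called higher. Other markers rose there too: 5 of 10 of colon epithelium, 3 of 8 of an embryonic kidney line and 2 of 8 of fibroblasts were called higher, and 3, 1 and 0 of them lower. The mean level of the leukocyte markers was 3.85 to 3.90 with estradiol, against 3.33 to 3.47 without it. PTPRC, the pan-leukocyte marker among them, stayed between 2.49 and 2.88 over all arrays, and no marker is listed at 0. The part of these values in the ESR1 difference was not tested.

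**Figure D4:**
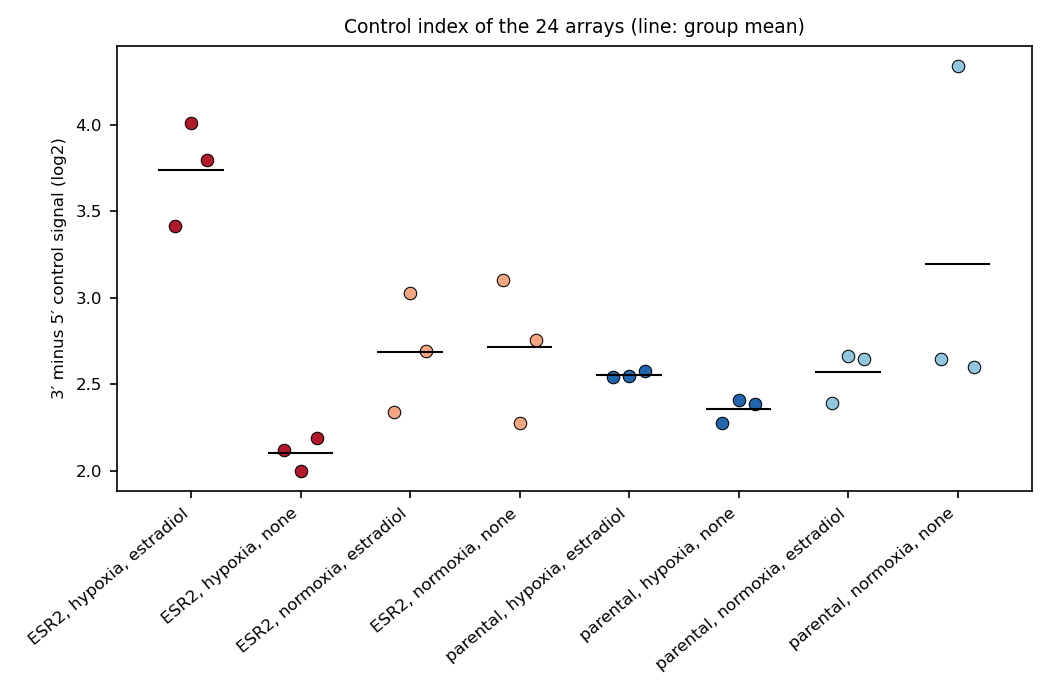
Control index, 3′ minus 5′ probe sets (vertical axis, log2, mean over beta-actin and 2 spike-in transcripts) on the 24 arrays by group (horizontal axis); lines are group means. Hypoxic ESR2 cells with estradiol average 3.74 and those without it 2.10, and array 2 of parental normoxia without estradiol reads 4.34.

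GPER1, the membrane receptor, gave opposite answers on its probe sets. On the brightest, 11753236_a_at, it was lower in hypoxic ESR2 cells without estradiol, at 5.15, 5.14 and 5.19, against 5.48, 5.60 and 5.49 in normoxic ESR2 cells. The groups did not overlap, and the difference was -0.36 (SE 0.10; limma, adjusted p = 0.00882). Probe set 11753608_a_at was called higher in the same comparison, by 0.24 (adjusted p = 0.0477), and the other 7 were not called. The mean over the 9 differed by 0.05 (adjusted p = 0.435).

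Between the cells in hypoxia most GPER1 probe sets were higher in ESR2 cells. Without estradiol 5 of 9 were called higher, where 17.4% of all probe sets were, and with estradiol 7 of 9, where 22.7% were. The brightest probe set was not among them in either comparison, with differences of -0.18 (95% interval -0.39 to 0.04) and 0.10 (95% interval -0.11 to 0.32). Probe set 11753609_x_at, whose suffix marks probes that may also match other transcripts, differed most. It read 4.59, 4.75 and 4.63 in hypoxic ESR2 cells with estradiol, against 4.003, 3.87 and 3.84 in hypoxic parental cells with it, a rise of 0.75 (SE 0.10; adjusted p = 7.74e-07). The mean over the 9 was higher in hypoxic ESR2 cells by 0.22 without estradiol (adjusted p = 0.000499) and by 0.36 with it (adjusted p = 7.16e-07).

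In normoxia without estradiol the brightest probe set was 0.30 higher in ESR2 cells, at 5.48, 5.60 and 5.49, against 5.20, 5.18 and 5.31 in parental cells, with no overlap (limma, adjusted p = 0.0497). A second probe set, 11732411_x_at, was called higher in the same comparison. The call of the brightest was lost in most alternatives run, among them 5 of the 6 that leave out 1 array (0.26 to 0.32). In parental cells the hypoxia difference was 0.11 without estradiol (95% interval -0.11 to 0.32), and the interaction was -0.47 (SE 0.15; adjusted p = 0.0162). As a mean over the 9 probe sets the interaction was 0.06 (adjusted p = 0.537). Its group means ran between 5.16 ± 0.03 in hypoxic and 5.52 ± 0.07 in normoxic ESR2 cells, both without estradiol (SD, n = 3 each), and all 7 neighbouring pairs overlapped. By RefSeq's annotation GPER1 lies wholly within CHLSN, another protein-coding gene of chromosome 7, and which probes would also match CHLSN transcripts was not analysed. CHLSN itself was lower in hypoxia by 0.92 in parental cells without estradiol (limma, adjusted p = 1.32e-07) and by 0.89 in ESR2 cells without it (adjusted p = 5.96e-07). In hypoxia with estradiol it was lower in ESR2 than in parental cells by 1.70 (adjusted p = 2.71e-12), where 7 of 9 GPER1 probe sets were called higher. With estradiol against without it in hypoxic ESR2 cells, CHLSN was lower by 1.51 (adjusted p = 4.17e-11). The part of CHLSN in the GPER1 values was not tested.

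**Figure D5:**
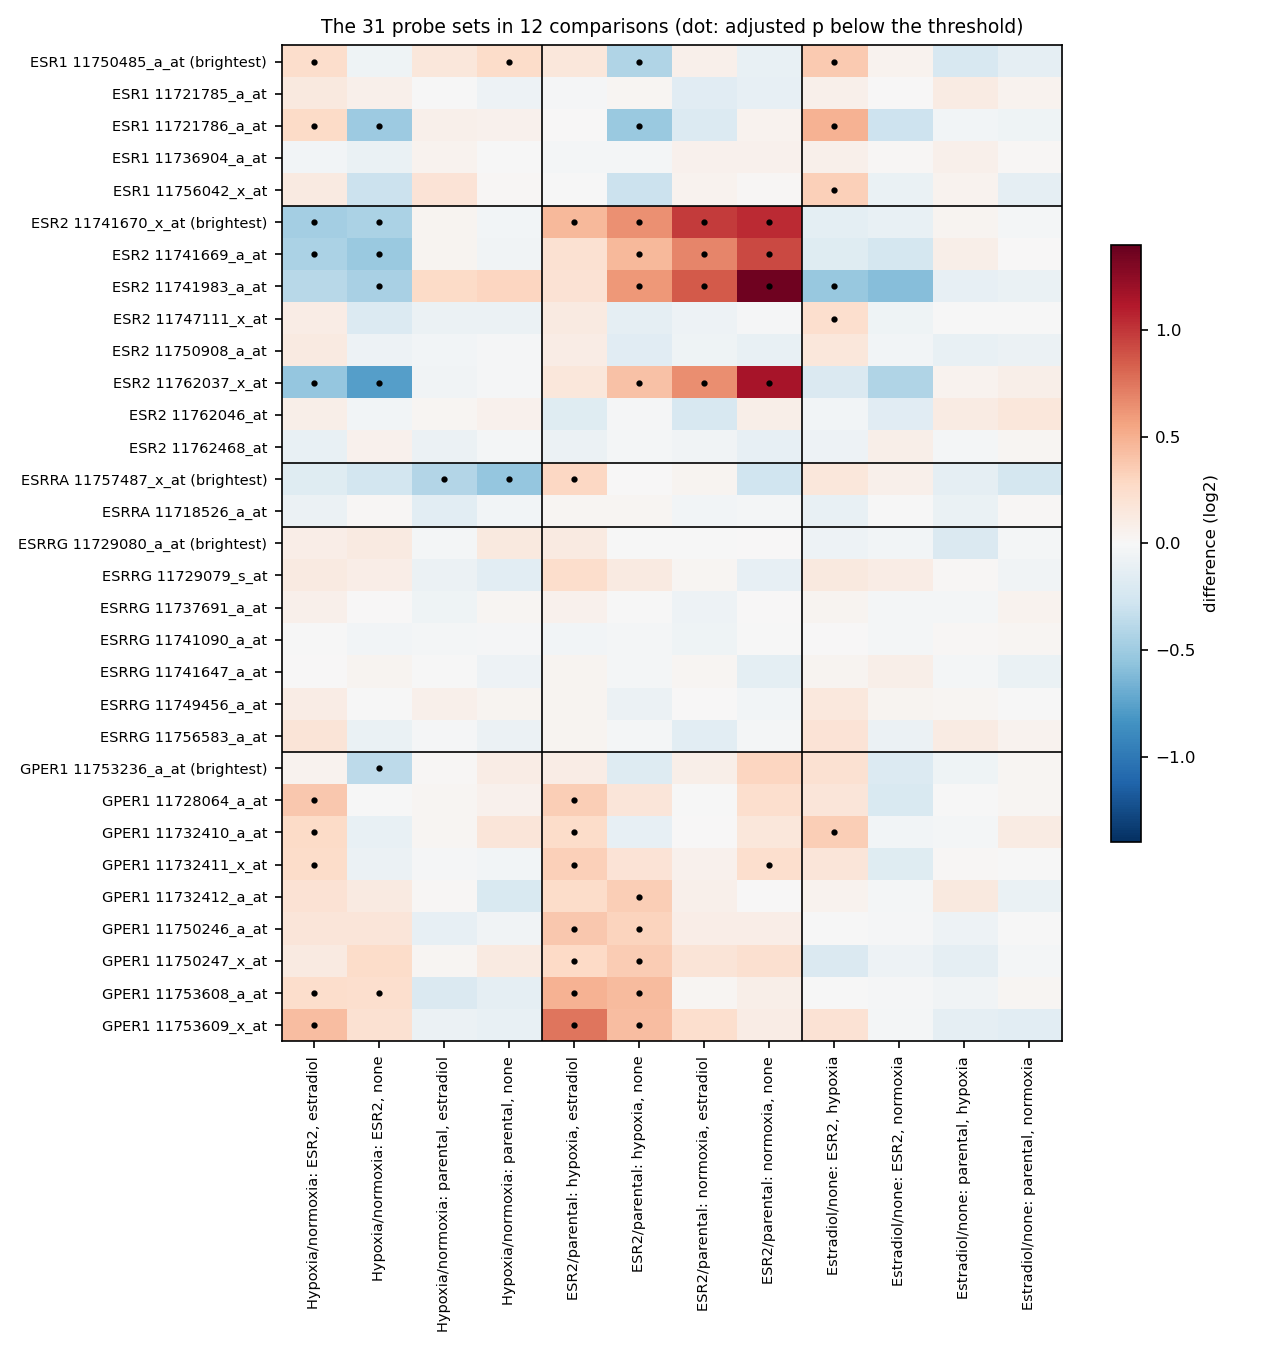
Differences (colour, log2) of the 31 probe sets of the 5 genes (rows) in 12 comparisons of groups (columns), with dots where the adjusted p over all probe sets was below the threshold. ESR2 divides into 4 probe sets with differences of 0.93 to 1.36 between ESR2 and parental cells in normoxia without estradiol and 4 near 0, the brightest GPER1 probe set lacks the dots that most others have between hypoxic ESR2 and parental cells, and ESRRG has no dot.

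ESRRG, the gene of estrogen-related receptor gamma, was not called in any of the 15 comparisons on its brightest probe set, and none of its 7 probe sets was called in the fit over all probe sets. Its 24 values lay between 2.89 and 3.24, below the median of every array, and all 7 neighbouring pairs of groups overlapped. Its largest difference was -0.20, with estradiol against without it in hypoxic parental cells (95% interval -0.35 to -0.06; limma, adjusted p = 0.842). In hypoxia without estradiol it differed by 0.12 in ESR2 cells (95% interval -0.02 to 0.27; adjusted p = 0.171) and by 0.14 in parental cells (adjusted p = 0.12). A change beyond these intervals was not seen, but the signal lies within the range of the nonspecific controls.

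Counted over the members, hypoxia without estradiol called 2 of 5 in ESR2 cells, where 32.6% of all genes were called, and 2 of 5 in parental cells, where 37.5% were. With estradiol it called 2 of 5 in ESR2 cells (52.3% of all genes) and 1 of 5 in parental cells (34.8%). Between ESR2 and parental cells 2 of 5 were called in hypoxia with estradiol (47.7%), 2 in hypoxia without it (40.4%), 1 in normoxia with it (13.7%) and 2 in normoxia without it (18.6%). The interaction of hypoxia with the cells called 1 member with estradiol (38.6%) and 1 without it (30.7%). Counts of 1 or 2 among 5 genes were not tested against the shares of all genes.

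Estradiol, the ligand, passed the test for no receptor in 3 of the 4 settings. It called 0 of 5 members in normoxic ESR2 cells, 0 in hypoxic parental cells and 0 in normoxic parental cells by limma, where 0%, 0.0164% and 0.011% of all genes were called; at an unadjusted p below 0.05 the members numbered 0, 2 and 1. The last share stands for 2 genes, which became 643 without array 1 of normoxic parental cells without estradiol and 604 with array weights. The largest of these 15 differences was -0.25, of ESRRA in normoxic parental cells (95% interval -0.46 to -0.04; adjusted p = 0.295), which was -0.10 without the array that stood apart. For ESR2 in normoxic ESR2 cells estradiol gave -0.10 (95% interval -0.38 to 0.17). In hypoxic ESR2 cells it called 1 of 5, ESR1. GPER1 read 5.69, 5.25 and 5.20 there with estradiol, against 5.15, 5.14 and 5.19 without it, a difference of 0.22 that missed the threshold (adjusted p = 0.0756). Averaged over oxygen, estradiol differed between ESR2 and parental cells for 2 of 5, where 24.5% of all genes were called: ESR1 by 0.38 (SE 0.09; adjusted p = 0.00423) and ESRRA by 0.30 (SE 0.10; adjusted p = 0.0292). As a mean over its probe sets ESR1 gave 0.13 (adjusted p = 0.131), and with the control index as a covariate ESRRA gave 0.09 (adjusted p = 0.605).

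The genes whose 8 group means followed a member most closely were sought for ESR2 and ESRRA, the members whose means spanned at least 0.5, among 8771 genes with such a span. For ESR2 they were DIRAS3, a small GTPase (r = 0.974), ANXA10, an annexin (0.964), TMA16 (0.948), PDE4B, a cAMP phosphodiesterase (0.948), and ZSWIM7 (0.948). For ESRRA they were CLTB, a clathrin light chain (0.987), M1AP (0.984), NUDT1, which clears oxidized nucleotides (0.983), SMPD2, a sphingomyelinase (0.982), and CTRL, a protease (0.979). These are the highest of many correlations over 8 points from the same arrays.

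Partners of estrogen-related receptors were read from 9 coregulator genes. In parental cells without estradiol hypoxia called 1 higher and 1 lower, 22.2% of the list against 37.5% of all genes, with a median of -0.02. PNRC1, a nuclear receptor coactivator, rose by 2.41 (SE 0.08; limma, adjusted p = 2.5e-16), and PPRC1, a relative of PGC-1, fell by 1.11 (SE 0.10; adjusted p = 1.51e-09). In ESR2 cells PNRC1 rose by 1.79 and NR0B2, a corepressor also known as SHP, fell by 0.38 (adjusted p = 0.0227). The hypoxia difference of PPRC1 was higher in ESR2 than in parental cells by 1.13 (interaction; adjusted p = 7.85e-07), and that of PNRC1 lower by 0.62 (adjusted p = 0.000305).

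Of 25 genes known as targets of estrogen-related receptors, hypoxia without estradiol called 5 higher and 9 lower in ESR2 cells (median -0.08) and 6 higher and 8 lower in parental cells (median -0.06), beside medians of -0.06 and 0.00 over all genes. Called genes made up 56% of the list in both cells, against 32.6% of all genes in ESR2 cells and 37.5% in parental cells. VEGFA, the angiogenic factor, rose by 1.16 in ESR2 cells and by 1.84 in parental cells. CPT1A, which admits fatty acids to mitochondria, rose by 1.12 in ESR2 cells, and its hypoxia difference was higher there than in parental cells by 0.93 (limma, adjusted p = 5.99e-08). In parental cells PDK4, a brake on pyruvate oxidation, rose by 0.88, while SOD2, the mitochondrial superoxide dismutase, fell by 0.88 and MFN2, of mitochondrial fusion, by 0.56. IDH3B, a subunit of isocitrate dehydrogenase, fell by 0.56 in ESR2 cells and SDHA, a subunit of succinate dehydrogenase, rose by 0.44. The list had no common direction in either cell.

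Of 23 estrogen response genes, hypoxia without estradiol called 9 higher and 2 lower in ESR2 cells and 8 higher and 2 lower in parental cells, with a median of 0.15 in both. Called genes made up 47.8% of the list in ESR2 cells, against 32.6% of all genes, and 43.5% in parental cells, against 37.5%. STC2, a secreted glycoprotein, rose by 2.02 in ESR2 cells and by 2.45 in parental cells, and CA12, a carbonic anhydrase, by 1.26 and by 1.72 in the same cells. RET, a receptor tyrosine kinase, rose by 1.81 in ESR2 cells, and its hypoxia difference was higher there than in parental cells by 1.35 (limma, adjusted p = 1.67e-05). PKIB, which inhibits protein kinase A, rose by 1.97 and SLC7A5, an amino acid transporter, fell by 1.23 in parental cells. Estradiol called none of the 23 in normoxic ESR2 cells, hypoxic parental cells or normoxic parental cells. In hypoxic ESR2 cells, where the control index also moved, it called 7 higher and 11 lower, 78.3% of the list against 57% of all genes (median -0.28, against 0.12 over all genes), among them MYBL1, higher by 1.58, and GREB1, a classical estrogen receptor target, lower by 1.35.

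Of 19 genes that make or inactivate estradiol, hypoxia without estradiol called 1 higher and 5 lower in ESR2 cells (median -0.10) and 5 higher and 1 lower in parental cells (median 0.04). Called genes made up 31.6% of the list in ESR2 cells, against 32.6% of all genes, and 31.6% in parental cells, against 37.5%. Most of those named here are 17β-hydroxysteroid dehydrogenases. HSD17B7, which also serves cholesterol synthesis, fell by 0.66 in ESR2 cells and HSD17B1, which makes estradiol, by 0.45, while HSD17B11 rose by 0.50. In parental cells HSD17B4, which oxidizes estradiol, rose by 0.49, HSD17B12 by 0.60 and HSD17B11 by 0.44, and HSD17B10 fell by 0.43. The hypoxia difference was lower in ESR2 than in parental cells for HSD17B7 by 1.16 (limma, adjusted p = 2.1e-07) and for HSD17B4 by 0.55 (adjusted p = 2.2e-05).

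Of 14 chaperones and membrane anchors of steroid receptors, hypoxia without estradiol called 3 higher and 1 lower in ESR2 cells (median 0.04) and 3 higher and 4 lower in parental cells (median -0.04). Called genes made up 28.6% of the list in ESR2 cells, against 32.6% of all genes, and 50% in parental cells, against 37.5%. FKBP5, an Hsp90 cochaperone, rose by 0.30 in ESR2 cells and fell by 0.34 in parental cells, and FKBP4, its relative, rose by 0.59 in ESR2 cells. ZDHHC7, a palmitoyltransferase that anchors estrogen receptors in membranes, fell by 0.57 in parental cells, where CAV1, the caveolar scaffold, rose by 0.49. The interaction was 0.64 for FKBP5 (limma, adjusted p = 2.09e-06) and 0.71 for ZDHHC7 (adjusted p = 1.41e-06).

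Of 21 genes of GPER1 signalling, hypoxia without estradiol called 7 higher and 2 lower in ESR2 cells (median 0.02) and 8 higher and 3 lower in parental cells (median 0.09). Called genes made up 42.9% of the list in ESR2 cells, against 32.6% of all genes, and 52.4% in parental cells, against 37.5%. FOS rose by 1.68 and CCN2, both of them genes induced through GPER1, by 1.47 in ESR2 cells. EGFR, the receptor that GPER1 transactivates, rose by 1.36 in parental cells, and HBEGF, its ligand released on GPER1 activation, fell by 0.79. The interaction was 1.76 for CCN2 (limma, adjusted p = 2.27e-08), 1.22 for HBEGF (adjusted p = 4.16e-07) and -1.29 for EGFR (adjusted p = 5.94e-07).

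Of 35 other nuclear receptors, hypoxia without estradiol called 10 higher and 1 lower in ESR2 cells (median 0.00) and 10 higher and 3 lower in parental cells (median 0.00). Called genes made up 31.4% of the list in ESR2 cells, against 32.6% of all genes, and 37.1% in parental cells, against 37.5%. In parental cells VDR, the vitamin D receptor, fell by 1.58, NR3C2, the mineralocorticoid receptor, rose by 1.41 and NR2F1 rose by 1.08. In ESR2 cells PPARA, which drives fatty acid oxidation, rose by 0.83 and THRA, a thyroid hormone receptor, by 0.50. NR1H3, the liver X receptor alpha, rose by 0.35 in ESR2 cells and fell by 0.47 in parental cells, an interaction of 0.82 (limma, adjusted p = 7.62e-07), and that of VDR was 1.48 (adjusted p = 4.39e-08).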

How the data were processed

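The 24 arrays, 3 in each of 8 groups, were hybridised to Affymetrix 3′ expression arrays with biotin-labelled RNA. The authors deposited log2 signals, for which the submitters' processing notes name RMA and affy, with no version. RMA makes all arrays share nearly 1 distribution, so a change of most genes in 1 direction would be partly removed. The array files name no genome build. Of 49386 probe sets, 93 controls were set aside; 45253 had 1 gene symbol, 1327 several and 2713 none. Only those with 1 symbol were used, the brightest of each of 18239 genes.

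A single limma fit (limma 3.58.1, R 4.3.3) over the 8 groups, with no covariate, gave all differences, with Benjamini-Hochberg adjustment over all genes, or over all probe sets where probe sets are counted; it was tested on simulated data. Interactions are differences of differences, ESR2 cells minus parental cells. All 5 members were named, and of each list at most 4 called genes of smallest p per comparison. The members and lists were chosen with earlier results of these data known. Alternatives were other scaling, other probe set rules, array weights, the control index as a covariate, a replicate block, and each array left out; leaving out the 4 arrays of highest index was chosen after seeing the data. Promoter sequences are from RefSeq, build GRCh38.p14. Figures were drawn with matplotlib 3.10.9.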

Additional observations from a re-analysis of the deposited data

Results flagged for a closer look

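Each of 4 results differs between ESR2 and parental cells by a limma test of the difference itself. The estradiol difference of ESR1 was more positive in ESR2 than in parental cells, averaged over oxygen, by 0.38 (adjusted p = 0.00423). That value was 0.45 (adjusted p = 0.00786) with the control index as a covariate and 0.13 (adjusted p = 0.131) as a mean over the 5 probe sets. In hypoxia, where the index also moved in ESR2 cells, ESR1 differed by 0.36 in ESR2 and -0.22 in parental cells. In normoxia it differed by 0.05 and -0.12 in the same cells, and only the 0.36 was called. The estradiol difference of ESRRA was also more positive in ESR2 cells, by 0.30 (adjusted p = 0.0292), which was 0.09 (adjusted p = 0.605) with the index as a covariate. No single estradiol difference of ESRRA was called. They were 0.07 in normoxic and 0.16 in hypoxic ESR2 cells, and -0.25 in normoxic and -0.12 in hypoxic parental cells. The hypoxia difference of ESR2 with estradiol was lower in ESR2 than in parental cells by 0.52, an interaction of -0.52 (adjusted p = 0.0318), and -0.22 (adjusted p = 0.115) as a mean over the 8 probe sets. The hypoxia difference of GPER1 without estradiol was lower in ESR2 than in parental cells on its brightest probe set, an interaction of -0.47 (adjusted p = 0.0162). As a mean over the 9 probe sets it was 0.06 (adjusted p = 0.537), and of the 9 tested singly 1 was called higher and 1 lower.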

How the results depend on the processing

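Of 1385 values of the members under alternatives, 1294 kept their side of the threshold, 54 lost the call, 34 gained one and 3 reversed. A value called in neither fit counted as kept even where its sign changed, and a reversal needed a call in at least 1 of the fits. The cause was not tested. All values are log2 differences from limma. The mean over all probe sets of a gene reversed GPER1, in hypoxic ESR2 against hypoxic parental cells without estradiol (0.22), in the interaction without estradiol (0.058) and in hypoxic against normoxic ESR2 cells without estradiol (0.049). It gave 0.051 for the hypoxia difference of ESR1 in parental cells, -0.18 for that in ESR2 cells and -0.32 for the ESR2 interaction, all without estradiol. For GPER1 in normoxic ESR2 against normoxic parental cells without estradiol, adjusted p was 0.14 with the control index as a covariate (0.24), 0.0508 without the 4 arrays of highest index (0.27), 0.0647 with medians centred (0.27), 0.0923 after another quantile normalization (0.26), and 0.0634 over every probe set, 0.0596 with an intensity trend and 0.0656 with the spread of only the groups compared, all at 0.30. The replicate block gave 0.30 there too (adjusted p = 0.0583) and changed no other call of a member; the numbers do not pair the arrays, since same-numbered arrays correlated at -0.29 to 0.29 in their deviations and only 9 of 84 pairs passed 0.1. The hypoxia difference of ESR1 in parental cells without estradiol lost its call with the index (0.21), medians centred (0.22) and quantile normalization (0.23), and that of ESR2 in ESR2 cells without estradiol with the index (-0.34) and the spread of only the groups compared (-0.44). Calls were gained for the hypoxia difference of ESRRA in ESR2 cells without estradiol (-0.26 without the 4 arrays, without the dimmest genes and with the spread of only the groups compared, -0.29 with array weights, -0.32 with quantile normalization) and for ESRRA in normoxic ESR2 against parental cells without estradiol (-0.30 with medians centred, -0.28 without the dimmest genes). Array weights called the interactions without estradiol of ESR1 (-0.41) and ESR2 (-0.43), the hypoxia difference of ESRRG in parental cells (0.22), and estradiol in hypoxic ESR2 cells for GPER1 (0.26, or 0.42 with the index). Quantile normalization called estradiol in hypoxic ESR2 cells for ESRRA (0.36), GPER1 (0.41) and ESRRG (-0.19), the hypoxia difference of ESRRG in ESR2 cells (0.18) and GPER1 between cells in hypoxia without estradiol (-0.27). Leaving out 1 array gave -0.41 to -0.23 for the ESR1 interaction, 0.24 to 0.28 for the hypoxia difference of ESR1 in parental cells, -0.65 to -0.22 for the ESR2 interaction, -0.68 to -0.26 for the hypoxia difference of ESR2 in ESR2 cells, -0.37 to -0.13 for ESRRA between normoxic cells, -0.31 to -0.21 for its hypoxia difference in ESR2 cells, 0.26 to 0.33 for GPER1 between normoxic cells and -0.54 to -0.37 for its interaction, all without estradiol, and 0.064 to 0.31 for estradiol on GPER1 in hypoxic ESR2 cells. Over all genes, array weights called 5187 and the spread of only the groups compared 1061, in place of 3396, between normoxic cells without estradiol; for estradiol in normoxic parental cells the count of 2 ranged over 0 to 643.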
